A study of Mus musculus with 6 samples.

Results

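Immunoglobulin gene segments are the separate pieces of DNA from which a B cell assembles its antibody genes. Their transcripts were followed here in whole kidney as transcript clusters, the units into which the array groups its probes. A cluster was taken when its single platform gene symbol names a variable (V), diversity (D), joining (J) or constant segment of the heavy, kappa or lambda locus. Among 65956 clusters 207 met this rule. With rows of identical values on all arrays counted once there were 205, of 64769 clusters in the whole table. The 205 hold 112 heavy V, 86 kappa V, 3 heavy D, 1 kappa J and 3 heavy constant clusters. No cluster with a single symbol names a lambda segment, the kappa constant segment, a heavy J segment or an IgA constant segment. Another 25 clusters carry several symbols, a segment among them, and fall outside the rule. The symbols of all 205 clusters were found in the RefSeq gene table, which lists 10 of the 198 V clusters as pseudogenes.

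In a developing B cell 1 V, D and J piece of the heavy locus and 1 V and J piece of a light chain locus are brought together and joined, and the joined exon is spliced to a constant segment. Each B cell clone therefore transcribes its own choice of V segments at a high rate, and its plasma cell descendants secrete the antibody. Rearranged transcripts in a kidney come from B cells and plasma cells in its tissue or blood. V segments of a family resemble each other in sequence, and how far their clusters share probe signal was not tested.

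The study compared kidneys of female Pkd1 miR transgenic mice at postnatal day 63. Pkd1 encodes polycystin 1, and its loss causes polycystic kidney disease. All 6 mice carried the transgene, whose promoter the sources used here do not name. From day 35 to day 63, 3 mice were given saline injections and 3 intraperitoneal metformin, at a daily dose of 150 mg/kg. Each mouse gave 1 single-colour array. Values are log2 expression and are listed for replicates 1, 2 and 3 of a group in that order. A change is the metformin mean less the saline mean, tested with limma, a linear model with shared variance, and a segment is said to have risen or fallen only where its Benjamini-Hochberg adjusted p over all 43179 clusters tested was under 0.05. In bulk RNA, fewer cells of a type and less RNA per cell cannot be told apart.

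Kidney markers were present: 15 of 15 proximal tubule markers and 11 of 11 measured markers of other nephron segments passed the filter on low values. Markers of several cell types rose or fell, where 12.2% of all clusters tested rose and 5.15% fell. Of the proximal tubule list 7 fell, among them the amino acid transporter genes Slc6a19 (-1.33) and Slc7a9 (-1.11), and its median deviation from each gene's mean ran from 0.18 to 0.60 on saline arrays and from -0.87 to 0.00 on metformin arrays. Of 12 measured adipocyte markers Adipoq and Cidec fell (-0.20 to 0.89 against -0.72 to -0.28). Of 15 macrophage markers Lyz2 and Ms4a7 rose, a share near that of all clusters, and the list's ranges overlapped (-0.84 to 0.23 against 0.05 to 0.59). Array metformin 1 held the highest value of 34.5% of all clusters. The part of these shifts in the results on antibody segments was not tested.

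Of the 205 clusters 140 passed the filter, a mean over all arrays above 4.03, and 4 of them rose while none fell. That is 2.86% of those tested, against 17.4% of all clusters tested (12.2% higher and 5.15% lower). At an unadjusted p under 0.05, 25 of the 140 were higher, against 22.8% of all clusters tested, and none was lower, against 10.2%. Some of the 25, such as Ighv1-18 (saline mean 3.974), had saline means under the filter value and passed it only through their metformin values. Over all 205 members, filtered or not, 161 had a change above 0 (78.5%), where 63.8% of all clusters did. The median change of the members was 0.16, beside 0.06 for all clusters. The metformin and saline values did not overlap in 26 members that were higher with metformin (12.7%), against 19.8% of all clusters, and in 1 that was lower, against 9.04%. The lower one was Ighv1-67, a cluster under the filter that read 3.45, 3.23 and 3.08 with saline and 3.07, 2.87 and 3.03 with metformin. No member was called after another scaling of the arrays, either median-centring or quantile normalization, with 9 and 11 members at an unadjusted p under 0.05 in limma.

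The constant segments are the part of the transcript that every antibody of a class shares. Ighm, which encodes the mu heavy chain of IgM, read 6.28, 6.67 and 5.84 with saline and 6.57, 7.25 and 7.07 with metformin. Its highest values lay on metformin 2 and 3, and metformin 1 lay below saline 2, so the groups overlapped. The change was 0.70 ± 0.25 (SE), from 6.26 ± 0.42 to 6.96 ± 0.36 (SD, n = 3 per group), or 1.62-fold, and did not pass the threshold (limma adjusted p = 0.0899). Without saline replicate 2 the change was 0.90 (limma adjusted p = 0.0390), the only 1 of 6 leave-one-out fits that passed. In the others the change was as low as 0.49 and the limma adjusted p up to 0.237. Ighg2b, the gamma 2b chain of an IgG subclass, read 4.39, 4.52 and 4.66 with saline and 4.50, 4.79 and 4.88 with metformin, again with its 2 highest values on metformin 2 and 3. Its change was 0.20 ± 0.14 (SE; limma adjusted p = 0.365). Ighg1, the gamma 1 chain of another IgG subclass, stayed under the filter. It read 3.90, 3.74 and 3.77 with saline and 3.89, 3.92 and 3.94 with metformin, a difference of 0.12.

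The J segment is the short piece that joins V to the constant part, and Igkj3 was the only J cluster with a symbol of its own. It read 5.29, 5.21 and 6.10 with saline and 4.99, 4.38 and 5.54 with metformin. The array labelled metformin 2, where Ighm was highest, gave the lowest Igkj3 value, and the groups overlapped. Its change was -0.56 ± 0.33 (SE; limma adjusted p = 0.280). None of the 3 D clusters passed the filter, and their changes ran from -0.38 to 0.13.

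**Figure D1:**
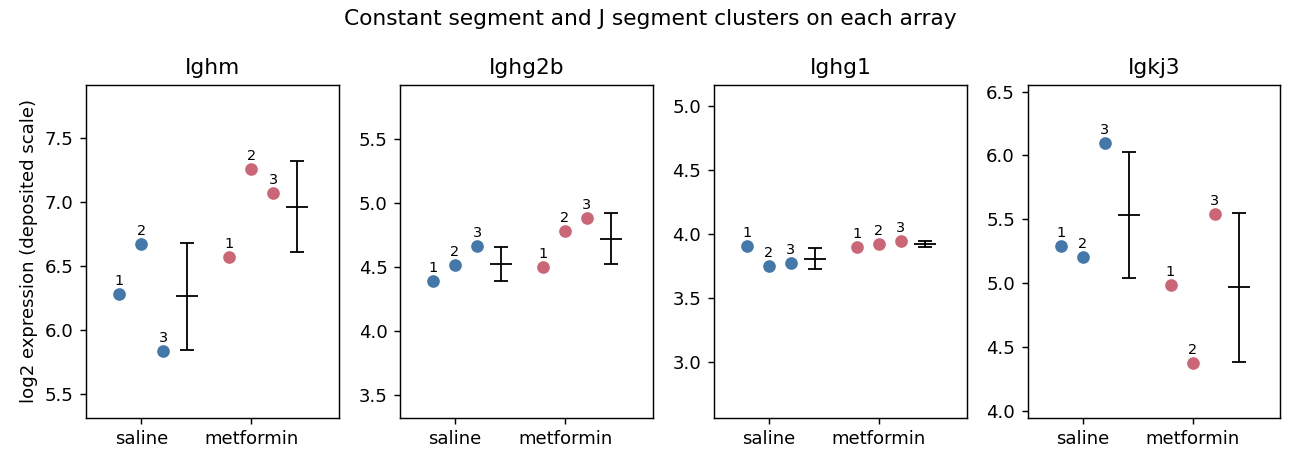
Log2 expression of the 3 constant clusters Ighm, Ighg2b and Ighg1 and of the J cluster Igkj3; points are arrays with their replicate number, and the bar beside them is the mean with the SD (n = 3 per group). The vertical axes have the same length, and the 3 constant clusters have their 2 highest values on metformin 2 and 3.

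V segments encode most of the antigen-binding part of an antibody chain. All 4 clusters that rose are V segments, as are 137 of the 140 members tested. Igkv4-70, a kappa segment, read 5.34, 4.99 and 5.39 with saline and 5.84, 6.86 and 6.0 with metformin. All metformin values lay above all saline values, and metformin 2 stood highest. The change was 0.99 ± 0.26 (SE), from 5.24 ± 0.22 to 6.23 ± 0.55 (SD, n = 3 per group), with a limma adjusted p = 0.0399. Igkv4-50 read 4.22, 4.02 and 4.16 against 4.43, 5.30 and 5.0, a change of 0.78 ± 0.21 (SE; limma adjusted p = 0.0417). Its groups did not overlap, and metformin 1 lay nearest to saline. Ighv1-79, a heavy chain segment of the large Ighv1 family, read 4.4, 4.5 and 4.41 against 4.73, 5.11 and 5.38 (change 0.63 ± 0.17, SE; limma adjusted p = 0.0390). Here too metformin 1 was the lowest of its group. Ighv6-6 read 4.52, 4.77 and 5.29 against 5.88, 5.86 and 5.39 (change 0.85 ± 0.22, SE; limma adjusted p = 0.0374), and it alone among the 4 had metformin 1 as its highest array. The calls of Igkv4-70, Igkv4-50 and Ighv1-79 ended in 5 of 6 leave-one-out fits, with limma adjusted p up to 0.104, 0.106 and 0.120, and held without metformin replicate 1. That of Ighv6-6 held without metformin replicate 3 (0.0350) or saline replicate 3 (0.0244) and ended in the other 4 fits, at up to 0.121.

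The kappa family Igkv4 was singled out after its values were seen. It has 25 clusters, of which 20 passed the filter and 2 rose (10% of those tested, against 17.4% of all clusters). Of the 25 immunoglobulin clusters with an unadjusted p under 0.05, all higher, 11 were Igkv4. Among these 11, Igkv4-53, Igkv4-79 and Igkv4-80 had saline means under the filter value (3.846, 3.945 and 3.998). They were tested only through their metformin values. Within the family 24 of its 25 clusters had a change above 0, and the median change was 0.55, beside 0.08 for the 61 other kappa V clusters and 0.06 for all clusters. The shift did not lie evenly on the metformin arrays. The median deviation from each cluster's mean was -0.36, -0.42 and -0.11 with saline and -0.22, 0.55 and 0.47 with metformin. Metformin 2 exceeded every saline array in 19 of the 25 clusters, metformin 3 in 23 and metformin 1 in 6. Metformin 2 and 3 held the 2 highest values in 17 of 25 (68.0%), against 6.37% of all clusters.

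Igkv4-62 had the greatest change of any V cluster past the filter, at 1.25 ± 0.52 (SE; limma adjusted p = 0.141). It read 4.04, 4.21 and 4.51 with saline and 4.12, 6.41 and 5.97 with metformin, so metformin 1 lay among the saline values. Igkv4-54 read 4.59, 4.72 and 5.05 against 4.71, 6.75 and 6.58 (change 1.22; limma adjusted p = 0.125). Igkv4-59 read 4.56, 4.60 and 4.78 against 4.54, 6.45 and 6.32 (change 1.12; limma adjusted p = 0.131). In these 3 clusters the metformin arrays lay further apart from each other than the group means did, and the difference between the groups was not called. Igkv4-55 read 3.91, 4.03 and 4.38 against 3.69, 5.97 and 5.62, with metformin 1 below every saline array (change 0.99; limma adjusted p = 0.238). Igkv4-80 read 3.86, 4.10 and 4.04 against 3.96, 5.25 and 5.68 (change 0.97; limma adjusted p = 0.127). Its saline mean (3.998) lay under the filter value, so it was tested only through its metformin values. Without metformin replicate 1, in that order, the changes of these 5 clusters were 1.94, 1.87, 1.74, 1.69 and 1.47, and each was called at a limma adjusted p between 0.0249 and 0.0252. In that fit 7.2% of all clusters were called. Of the 6 leave-one-out fits it was the only 1 in which any of these 5 passed. In the others their limma adjusted p reached 0.288 to 0.531.

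Some Igkv4 clusters did not share the pattern, and those given here were chosen after their values were seen. Igkv4-90 read 4.25, 4.61 and 4.42 with saline and 4.59, 4.35 and 4.56 with metformin, and Igkv4-91 was the only cluster of the family with a change below 0 (-0.04). Igkv4-92 had its highest value on metformin 1 (4.44). These 3 are the last measured clusters of the family in the reference order, and Igkv4-91 and Igkv4-92 stayed under the filter. The pattern was also missing elsewhere in the order. Metformin 2 lay below the cluster mean in Igkv4-51 (-0.035), Igkv4-81 (-0.011) and Igkv4-86 (-0.008), and metformin 3 in Igkv4-53 (-0.043). Igkv4-56, which RefSeq lists as a pseudogene, read 5.58, 5.40 and 5.94 against 5.94, 5.83 and 6.04. On the reference order of the locus the Igkv4 members lie in a stretch of 56 kappa V genes, 33 of them Igkv4. The 5 measured clusters of other families inside this stretch had a median change of 0.08, and the 56 kappa V clusters of other families outside it one of 0.09.

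**Figure D2:**
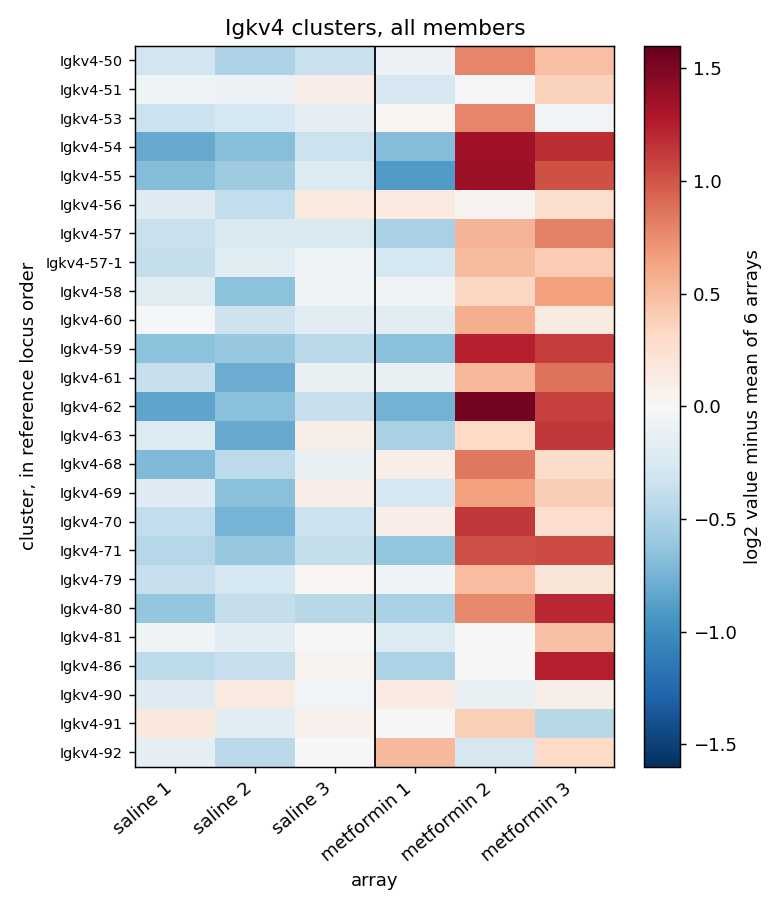
Deviation of each of the 25 Igkv4 clusters (rows, in reference order of the locus) from its mean over the 6 arrays (columns), in log2 units; red is above and blue below the mean. Most clusters are red on metformin 2 and 3 and not on metformin 1. The last 3 at the bottom do not share this (Igkv4-91 and Igkv4-92 are under the filter), and neither do some clusters higher up, such as Igkv4-51.

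Ighv1 is the largest heavy V family here, with 60 clusters, of which 42 passed the filter and 1 rose (2.38% of those tested, against 17.4% of all clusters). Its median change was 0.18, beside 0.13 for the 52 other heavy V clusters. By array its median deviation was -0.29, -0.21 and 0.18 with saline and -0.27, 0.23 and 0.26 with metformin. Saline 3 lay close to metformin 2 and 3, and metformin 1 close to saline 1 and 2. Metformin 2 and 3 held the 2 highest values in 25 of the 60 clusters (41.7%), against 11.5% of the other heavy V clusters. Within metformin the median range between arrays was 0.72 for Ighv1 and 0.87 for Igkv4, and within saline it was 0.47 and 0.40. It was 0.27 within either group over all clusters. Ighv1-9, named after its values were seen, read 4.79, 4.93 and 4.95 with saline and 4.97, 5.94 and 6.47 with metformin (change 0.91; limma adjusted p = 0.0994). Ighv1-42, also named for its values, read 3.84, 4.11 and 4.01 against 3.95, 5.01 and 5.88 (change 0.96; limma adjusted p = 0.154). The saline mean of Ighv1-42 (3.987) lay under the filter value, so it was tested only through its metformin values. In both Ighv1-9 and Ighv1-42, metformin 1 lay beside the saline arrays.

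Ighv1-2, which RefSeq lists as a pseudogene, read 8.40, 9.25 and 9.71 with saline and 8.47, 9.99 and 10.94 with metformin. Its groups overlapped widely, and its change of 0.68 ± 0.59 (SE) did not pass (limma adjusted p = 0.478). Ighv1-77 read 3.46, 3.10 and 5.44 against 3.63, 4.11 and 5.42, so that 1 array of each group, replicate 3, stood far above the others. Its change of 0.39 (limma adjusted p = 0.732) turned to -0.13 without metformin replicate 3 and to -0.06 without saline replicate 2. In 3 clusters, named after their values were seen, a single array lay over 1 log2 unit above the next, which is 1.46% of the members and 0.244% of all clusters. Ighv1-82, under the filter, read 6.16 on metformin 2 and between 2.75 and 3.97 on the other arrays. Ighv1-22 read 5.72 on metformin 3 and between 4.18 and 4.48 elsewhere, and Igkv4-86 read 5.45 on metformin 3 and between 3.70 and 4.27 elsewhere. The high value lay on metformin 3 in 2 of these clusters and on metformin 2 in the other.

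**Figure D3:**
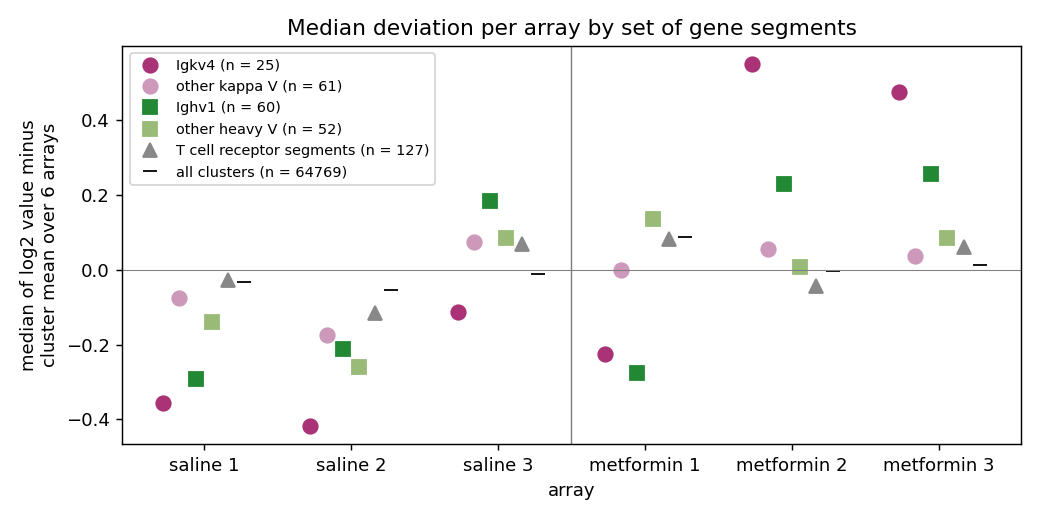
Median over clusters of the log2 value minus the cluster's mean over the 6 arrays, for each array (horizontal axis) and set of segments (symbols; n is the number of clusters). Igkv4 reaches 0.55 and 0.47 on metformin 2 and 3 and is at -0.22 on metformin 1, while the median of all clusters stays between -0.05 and 0.09.

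No V cluster fell at the adjusted threshold. The 6 V clusters past the filter with the lowest changes were Ighv3-6 (-0.52), Ighv1-47 (-0.29), Igkv1-132 (-0.28), Igkv8-28 (-0.26), Ighv1-62-1 (-0.24) and Ighv1-76 (-0.24), with limma adjusted p between 0.235 and 0.743. Ighv3-6 read 5.78, 5.02 and 6.05 against 4.78, 5.44 and 5.07, and without saline replicate 2 its change was -0.82 (limma adjusted p = 0.0364). It passed in that 1 of the 6 leave-one-out fits, with a limma adjusted p up to 0.508 in the others. Ighv1-76 read 4.28, 4.49 and 5.95 against 4.65, 4.23 and 5.11, with saline 3 far above the other saline arrays, and without that array its change was 0.28. The 10 V pseudogenes had a median change of 0.16, as did the 188 other V clusters (0.16).

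The members had their highest values on other arrays than most clusters, as a description without a test. Metformin 3 held the highest value of 60 members (29.3%), metformin 2 of 53 (25.9%) and saline 3 of 50 (24.4%). Over all clusters these arrays held 14.0%, 13.4% and 15.3%. Metformin 1 was highest in 31 members (15.1%), against 34.5% of all clusters. Saline 1 and saline 2 were highest in 9 and 2 members (4.39% and 0.976%, against 14.5% and 8.28%). T cell receptor segments, the corresponding pieces of the genes that T cells rearrange, gave a comparison with another set of V, J and constant clusters. Of 127 such clusters 74 passed the filter and 1 rose (1.35%, against 17.4%), Trav13d-4 at 0.47 ± 0.14 (SE; limma adjusted p = 0.0493), whose call ended with any 1 array left out. Metformin 1 was highest in 31.5% of them. Metformin 2 and 3 held the 2 highest values in 6.30% of the T cell receptor clusters and in 30.2% of the immunoglobulin clusters. The latter share was uneven, at 68% of Igkv4 and 41.7% of Ighv1 clusters. It was 18% of the other kappa V and 11.5% of the other heavy V clusters.

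**Figure D4:**
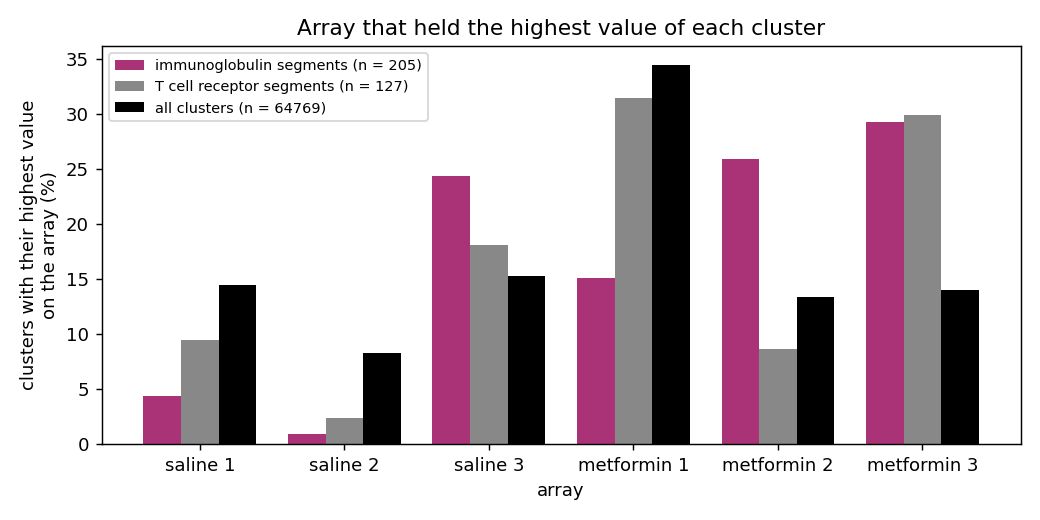
Share of clusters (%) that had their highest value on each array, for immunoglobulin segments, T cell receptor segments and all clusters. Among immunoglobulin segments metformin 3, metformin 2 and saline 3 lead with 29.3%, 25.9% and 24.4%, while metformin 1 leads among all clusters with 34.5%.

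The number of calls among the antibody segments moved with single arrays. It was 19 without metformin replicate 1, all higher, which is 13.6% of the 140 tested against 7.2% of all clusters in that fit. Of these 19, 10 were Igkv4, 8 Ighv1 and 1 Igkv3-2, and 3 were among the 4 called on all arrays. Igkv4-80 and Ighv1-42, among the 19, had saline means under the filter value (3.998 and 3.987). Igkv3-2, named for this count, read 4.4, 4.61 and 4.59 with saline and 4.75, 5.44 and 6.15 with metformin. Without metformin replicate 2 or without saline replicate 1 no member was called, against 7.12% and 4.67% of all clusters, with 14 and 9 members at an unadjusted p under 0.05 in limma. The count was 1 without metformin replicate 3 (Ighv6-6), 2 without saline replicate 2 (Ighm higher, Ighv3-6 lower) and 3 without saline replicate 3 (Ighv6-6, Ighv5-6 and Igkv9-124). In these fits the share of members called was 0.714%, 1.43% and 2.14%, against 12.5%, 18.6% and 10% of all clusters, so that it lay above the share of all clusters in 1 of the 6 leave-one-out fits, the one without metformin replicate 1. The median change of Igkv4 was 0.86 without metformin replicate 1 and 0.44 to 0.69 without any other array.

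The 65 members under the filter read between 2.48 and 6.16, with changes from -0.38 to 0.99. Without the filter 4 of the 205 were called (10.3% of all clusters were), 3 of them also called with it, and the fourth was Igkv4-68 (limma adjusted p = 0.0490). It read 2.84, 3.12 and 3.42 against 3.65, 4.39 and 3.84. Just above the filter lay Ighv5-17 and Igkv13-87 (means 4.03 and 4.05), and just under it Ighv1-52 and Igkv1-115 (both 4.02).

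The cells that transcribe antibody genes were followed by lists of their markers. Of 19 measured B cell markers 16 passed the filter and 1 rose, where 12.2% of all clusters tested did. This was Blnk, an adaptor of B cell receptor signalling, with a change of 0.64 ± 0.18 (SE; limma adjusted p = 0.0467). Blnk read 10.5, 10.4 and 9.8 with saline and 10.9, 10.9 and 10.9 with metformin, far above Cd79a and Ms4a1 given below. Which cells gave its signal was not tested. The list's median deviation ran from -0.04 to 0.02 on saline arrays and from -0.03 to 0.04 on metformin arrays. Cd79a, a signalling chain of the B cell receptor that was named as a defining marker and not by its p, read 4.17, 4.23 and 4.25 against 4.22, 4.17 and 4.19. Ms4a1, the B cell surface protein CD20, read 4.05, 3.92 and 4.13 against 4.21, 4.15 and 4.28. Cd79a and Ms4a1 both lay close to the filter at 4.03, and whether the number of B cells changed was not tested. Cd72, a B cell co-receptor, had a change of 0.75 and did not pass (limma adjusted p = 0.169). It read 7.60, 8.50 and 7.15 with saline and 8.91, 8.41 and 8.17 with metformin, also far above Cd79a and Ms4a1. The source cells of the Cd72 signal were not tested either. Ly6d, next on the list by p, had a change of -0.64 and did not pass (limma adjusted p = 0.26).

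Of 19 measured plasma cell markers 16 passed the filter, none rose and 1 fell, where 5.15% of all clusters tested did. The 1 that fell was Xbp1, a transcription factor of the secretory pathway that other secretory and epithelial cells also use, at -0.54 ± 0.13 (SE; limma adjusted p = 0.0316). It read 11.55, 11.67 and 11.31 with saline and 10.92, 11.11 and 10.89 with metformin. Jchain, Mzb1 and Tnfrsf17 were likewise named as defining genes of plasma cells. Jchain, which links IgM and IgA into polymers, read 4.81, 4.75 and 5.04 against 4.76, 4.99 and 5.17 (change 0.11; limma adjusted p = 0.645), with saline 3 above metformin 1 and 2. Mzb1 and Tnfrsf17 stayed under the filter, at 3.34 to 3.97 and 3.56 to 4.01. The median deviation of this list ran from -0.00 to 0.02 on saline arrays and from -0.04 to 0.05 on metformin arrays.

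The recombination list holds the surrogate light chain and the enzymes that cut and join segments. In it 12 of 15 measured genes passed the filter and 1 fell. Over all clusters tested 5.15% fell, the share to set beside this count and those of the receptor and growth factor lists below. The recombination gene that fell was the DNA end-binding protein gene Xrcc5, at -0.54 (limma adjusted p = 0.0463). Rag2, a subunit of the recombinase, and Dntt, which adds bases at the joints, were named for their roles and stayed under the filter. Of 12 receptors and carriers of antibodies 9 passed the filter and Fcgrt fell. Fcgrt encodes the neonatal Fc receptor, which carries IgG and albumin out of endosomes. It read 12.46, 12.27 and 12.57 with saline and 11.19, 11.72 and 11.76 with metformin, a change of -0.88 ± 0.17 (SE; limma adjusted p = 0.0170) without overlap. Pigr, the epithelial carrier of polymeric IgA and IgM, was named for its role and not by its p. It read 10.75, 11.69 and 10.84 against 11.63, 11.30 and 11.08 (change 0.24; limma adjusted p = 0.572). Of 14 measured B cell growth factors and homing genes 9 passed the filter and 1 fell, Cxcl12, a chemokine that retains plasma cells (-0.87 ± 0.22, SE; limma adjusted p = 0.0368). The range of the proximal tubule list given above stands beside the fall of Fcgrt, and its part in it was not tested.

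The other lists of cells the tissue could hold are given by their counts, beside 17.4% of all clusters called (12.2% higher and 5.15% lower). Of 14 measured T cell markers all passed the filter and 1 rose, Thy1 at 0.60 (limma adjusted p = 0.0270). None of 7 natural killer, 5 neutrophil and 9 lymph node and lymphatic stroma genes past the filter passed the test (0, 2 and 3 had an unadjusted p under 0.05 in limma). Of 9 listed erythroid genes 3 were measured, all past the filter and none a globin gene. Slc4a1 (-0.86) and Alas2 (-0.53) fell, and Epb42 did not pass (change 0.12, limma adjusted p = 0.505). Which cells of the kidney gave the signals of Slc4a1 and Alas2 was not tested. Of the 11 markers of other nephron segments Aqp3, a water channel of the collecting duct, fell (-0.73).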

How the data were processed

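RNA from 6 kidneys was hybridised to 6 single-colour arrays (3 saline, 3 metformin). The authors deposited 1 value per transcript cluster and array on a log2 scale. The submitters' processing notes name RMA and, for software, Transcriptome Analysis Console 4.0. No build or probe definition is stated in what was used here. Array medians lay between 4.67 and 4.86, and the number of arrays limits the precision. Of 65956 clusters 30604 have 1 symbol, 2146 several, and 33206 stay unnamed. Symbols of marker genes were updated by Entrez number with the RefSeq table of assembly GRCm38.p6. Its sequence tables were not used here for the members.

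The 33.3% of clusters with the lowest mean were left out, which left 43179. The test, two-sided and without covariates, used lmFit and eBayes of limma 3.58.1 under R 4.3.3, and was tested on simulated data. Differences from a cluster's mean over the 6 arrays are given as medians, with no test. Named were all constant clusters and the J cluster, V clusters that were called, the 6 V clusters with the largest rise, fall and SD, and up to 6 list genes with the smallest p. Others are marked. Members and lists were chosen with earlier results of these data known. The alternatives tried were the replicate number as a block, median-centring, quantile normalization, other filters, other feature sets, trend and robust options, array weights and leaving out each array.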

Additional observations from a re-analysis of the deposited data

How the results depend on the processing

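The count of 4 immunoglobulin clusters called was 3 or 4 with other filters, with clusters of 1 symbol only, with 1 cluster per gene and with trend and robust options. It was 8 with array weights, 0 after median-centring and 0 after quantile normalization (9 and 11 at an unadjusted p under 0.05), and 0 to 19 with 1 array left out. The count of 0 constant clusters was 1 with array weights (Ighm, limma adjusted p = 0.0429) and 0 to 1 with 1 array left out. The count of 1 T cell receptor cluster was 0 after median-centring, quantile normalization or with trend and robust options, and 0 to 1 with 1 array left out. The cause was not tested. With 1 array left out the change of Ighv1-76 ran from -0.56 to 0.28 and turned above 0 without saline replicate 3. That of Ighv1-77 ran from -0.13 to 1.11 and turned below 0 without metformin replicate 3 (-0.13) or saline replicate 2 (-0.06). The median changes of heavy V, kappa V and Igkv4 clusters, whose alternatives were chosen after seeing the data, kept their sign in every fit, at 0.08 and 0.09, 0.05 and 0.09, and 0.46 and 0.45 after median-centring and quantile normalization.

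With the replicate number as a block, 9 immunoglobulin clusters were called (8 higher, 1 lower), 0 constant and 0 T cell receptor clusters. The 1 lower was Igkj3 (limma adjusted p = 0.0422). Of the 4 clusters called without the block, Ighv1-79 was called with it. Deviations of same-numbered arrays correlated across clusters at 0.087, 0.12 and 0.427, and not every array correlated best with its own number, so the arrays share a number and no pairing was assumed.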

Other observations

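The genes outside the rule whose values followed the mean of the 2 constant clusters past the filter most closely over the 6 arrays were Camk1, Gm10600, Zbtb12, 4933401B06Rik, Gm25132, Gm26225, Rbm4, Rps15a-ps3, Cdk16 and Ear-ps9. Their Pearson coefficients lay between 0.970 and 0.986. They are the 10 highest of all named genes tested and share the arrays, so the values are a description. None is on the B cell or plasma cell list. Gm10600 read 9.35, 10.33 and 9.55 with saline and 10.16, 11.39 and 11.21 with metformin, with a change of 1.17 (limma adjusted p = 0.0614).

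Ccl28, a chemokine that draws antibody-secreting cells to epithelia, read 10.19 on saline 3 and between 6.23 and 7.09 on the other arrays (change -0.92; limma adjusted p = 0.546).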
